A study of Mus musculus with 18 samples.

Results

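The mature microRNAs (miRNAs) of mouse embryonic stem cells (ESCs) were compared with those of the freshly isolated inner cell mass (ICM) from which such cells are derived. The comparison used 8 of the 18 libraries of a small-RNA sequencing series, 6 from ESCs and 2 from ICM. The ESC libraries carry the codes P2, P4 and P15, with 2 libraries each, and each code was set against ICM separately. A miRNA was kept when it was called in the same direction in all 3 codes, after every value below a common floor of 27.2 normalized counts had been raised to it. Of 1390 miRNAs in the table, 511 lay above the floor in at least 2 of the 8 libraries and were tested. Of these, 91 were higher and 134 were lower than ICM in all 3 codes.

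All libraries came from NMRI mice. The ESCs were grown on gelatin in serum-free N2B27 medium with leukemia inhibitory factor and R2i, the pair of inhibitors PD0325901 (against MEK) and SB431542 (against the TGF-beta type I receptors). The ICMs were isolated by immunosurgery, a complement lysis of the outer cells, from blastocysts flushed at E3.5, and the day 0 libraries were collected fresh. The ESC codes come from the library descriptions, and the titles disagree with them. Libraries coded P2 are titled passage 4, those coded P4 are titled passage 15, and those coded P15 are titled passage 2. The codes are therefore used as names of 3 pairs of libraries, with no order of passage. The labels do not say whether the replicates are separate cell lines or embryo pools, so p-values measure the spread between these libraries, which may be technical. A further 10 libraries, from ICM outgrowths after 0.5, 1, 2, 3 and 5 days in culture, did not enter the contrasts that chose the miRNAs. They share the estimate of the spread in the fit, and their values are used as a further set.

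A miRNA is a short RNA that guides Argonaute proteins to messenger RNAs, mainly through its seed, bases 2 to 8 from the 5′ end, so miRNAs with the same seed share most of their targets. Most are cut from a hairpin that yields 2 arms, named 5p and 3p, of which 1 is often far more abundant. In mouse pluripotent cells the best known are the miR-290-295 and miR-302/miR-367 clusters, which speed the passage from G1 to S phase, and the miR-17-92 cluster with its paralogs, which promotes proliferation. The let-7 family has the opposite reputation, since it accumulates in differentiated cells and opposes the pluripotent miRNAs.

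Depth differed between the stages. The values of the ICM libraries fall on steps of 1 read, which gave 110742 and 201802 reads, while the ESC libraries hold at least 2382260 to 3021270 reads if their lowest value also stands for 5 reads. The floor equals 5 reads of the shallower ICM library, where 1 read weighs 5.44 normalized counts. Totals of normalized counts were 781162 to 1265117 in ESC libraries, against 602238 and 625749 in ICM libraries. Changes are given as log2 differences between group means of floored values. Calls are from limma's moderated test with Benjamini-Hochberg adjustment, at an adjusted p below 0.05. Where all libraries of a group lie at or under the floor, the difference is a lower bound in size.

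Of the tested miRNAs, 412 matched a RefSeq sequence (GRCm38.p6), among them 72 of the 91 higher and 102 of the 134 lower. Most of the matched kept miRNAs had a seed of their own among the 412. Of the 72, 25 (34.7%) shared one with another of the 412, and of the 102, 18 (17.6%) did, against 27.2% of the 412. Member counts of the seed families below also cover only the 412. Some of the shared families are shown here because their members moved together or parted, with the seed in capitals, 5′ to 3′. The first set is the AAAGUGC family of the miR-17-92 cluster and its paralogs, in which 5 of 6 tested members were higher in all 3 codes and miR-106b-5p was higher in 2. The last line adds miR-302d-3p of the miR-302/miR-367 cluster, whose seed is AAGUGCU.
miR-17-5p: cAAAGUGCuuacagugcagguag
miR-20a-5p: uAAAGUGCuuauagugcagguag
miR-20b-5p: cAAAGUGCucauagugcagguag
miR-93-5p: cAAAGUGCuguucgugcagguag
miR-106a-5p: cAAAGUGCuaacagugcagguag
miR-106b-5p: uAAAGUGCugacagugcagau
miR-302d-3p: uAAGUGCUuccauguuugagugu

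Next comes the miR-130/miR-301 family with the seed AGUGCAA, whose 3 tested members with a matched sequence were higher in all 3 codes. The AUUGCAC family follows, in which close relatives parted. Of its 5 tested members, miR-25-3p and miR-363-3p were higher in all 3 codes, while miR-92a-3p went in opposite directions in different codes.
miR-130a-3p: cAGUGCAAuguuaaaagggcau
miR-130b-3p: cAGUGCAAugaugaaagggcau
miR-301a-3p: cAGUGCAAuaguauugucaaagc
miR-25-3p: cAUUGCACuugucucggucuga
miR-363-3p: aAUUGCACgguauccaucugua
miR-92a-3p: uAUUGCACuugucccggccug

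The families on the lower side follow. They are let-7, with the seed GAGGUAG and 3 of 8 tested members lower in all 3 codes, miR-10 with the seed ACCCUGU and both members lower, and miR-3473b and miR-3473e with the seed GGCUGGA, both lower. The line for let-7c-5p is shown because this member was higher in 2 codes, although it has the same seed.
let-7a-5p: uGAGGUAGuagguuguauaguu
let-7f-5p: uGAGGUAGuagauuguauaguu
let-7e-5p: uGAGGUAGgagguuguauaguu
let-7c-5p: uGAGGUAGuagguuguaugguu
miR-10a-5p: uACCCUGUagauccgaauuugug
miR-10b-5p: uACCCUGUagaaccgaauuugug
miR-3473b: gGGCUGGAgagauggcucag
miR-3473e: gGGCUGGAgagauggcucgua

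Against ICM, ESC P2 had 205 higher (40.1%) and 176 lower (34.4%) miRNAs of the 511 tested. ESC P4 had 169 higher (33.1%) and 156 lower (30.5%), and ESC P15 had 149 higher (29.2%) and 159 lower (31.1%). The 3 contrasts share the same ICM libraries, so they are not independent. The rule kept 91 higher (17.8% of those tested) and 134 lower (26.2%), and all of these also separated the groups without overlap. In all, 123 miRNAs (24.1%) had every ESC library above both ICM libraries, and 154 (30.1%) had every ESC library below both. A further 72 miRNAs were higher in 2 codes, 86 higher in 1, 24 lower in 2 and 19 lower in 1. Another 18 (3.52%) were called in opposite directions in different codes, and 67 were called in none. The median difference of all tested miRNAs was 0.00 in each code. When every library was instead set to the same total, 46 rather than 91 were higher in all 3 codes and 173 rather than 134 were lower, and the median difference over the 3 codes moved by -0.34. The count of higher miRNAs therefore depends on the scaling, and no kept miRNA was kept in the other direction under any of the 19 alternatives run.

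**Figure D1:**
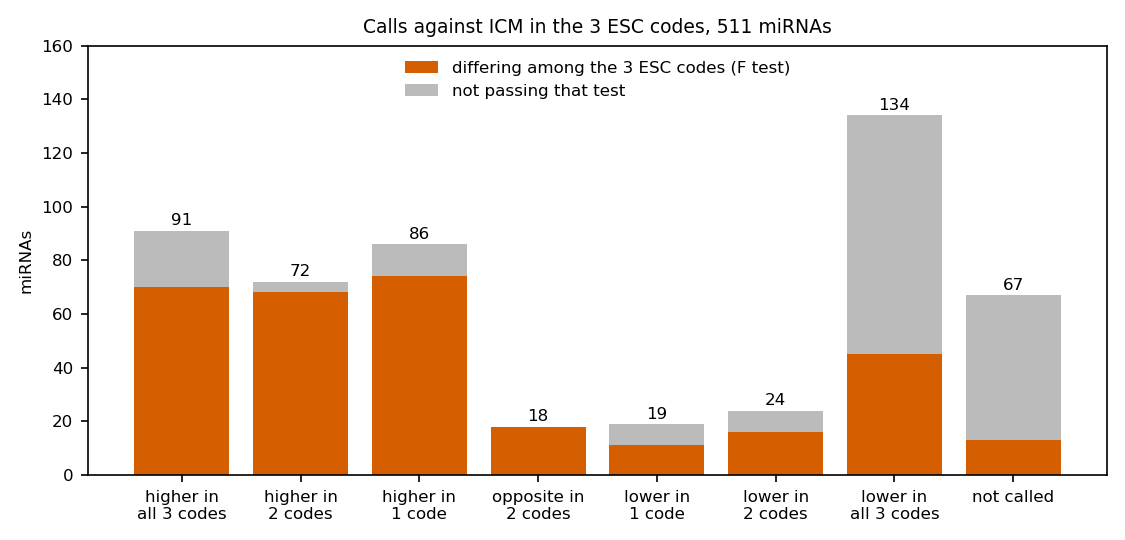
Number of tested miRNAs (vertical axis) by the calls of the 3 ESC codes against ICM (horizontal axis). Orange marks those that also differed among the 3 ESC codes in an F test, 70 of the 91 higher and 45 of the 134 lower in all 3 codes, and grey marks the rest.

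Kept miRNAs took up a large part of the small RNA. The 91 higher ones held 54.5% and 58.9% of all normalized counts in ESC P2, 54.8% and 45.5% in ESC P4 and 60.3% and 60.1% in ESC P15, against 10.1% and 11.1% in ICM. The 134 lower ones held 2.03% to 3.17% in ESC libraries, against 31.6% and 29.7% in ICM. These shares describe the chosen sets and carry no test. Of the 91, 22 had both ICM libraries at or under the floor, and of the 134, 72 had all 6 ESC libraries there.

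Several of the most abundant miRNAs in ESCs were kept as higher. miR-182-5p and miR-183-5p, from a single cluster best known from sensory organs and also abundant in ESCs, are transcribed together on chromosome 6. The normalized counts of miR-182-5p were 113745 and 121388 in ESC P2, 119225 and 77711 in ESC P4 and 194670 and 199202 in ESC P15, against 19224 and 21746 in ICM. The smallest of its 3 log2 differences was 2.24 (SE 0.28, largest adjusted p = 2.64e-05). For miR-183-5p the counts were 11977 and 17860 in ESC P2, 39641 and 13597 in ESC P4 and 86214 and 95936 in ESC P15, against 1164 and 1749 in ICM. Both rose in every code, and P15 lay above P2 and P4 for each, while the P4 replicates of miR-183-5p stood far apart. Of 5 tested arms of the cluster, 3 were higher and 1 was lower in all 3 codes, against 17.8% and 26.2% of all tested.

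The same split between P4 replicates appeared in miR-191-5p, a broadly expressed miRNA. It had 41181 and 55977 normalized counts in ESC P2, 132181 and 47602 in ESC P4 and 257990 and 279667 in ESC P15, against 10055 and 12375 in ICM. Its log2 differences were 2.11, 2.83 and 4.59 (SE 0.57 each, largest adjusted p = 0.00557). miR-16-5p, a member of the family that restrains cyclins, varied little within codes. Its counts were 23614 and 28763 in ESC P2, 17760 and 16140 in ESC P4 and 28514 and 28764 in ESC P15, against 3127 and 3783 in ICM, with a smallest log2 difference of 2.30 (SE 0.17). miR-26a-5p, which targets the Polycomb methyltransferase Ezh2, had log2 differences of 2.70, 2.70 and 3.05 (SE 0.21 each) in P2, P4 and P15 and did not differ among the codes in the F test (adjusted p = 0.270).

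**Figure D2:**
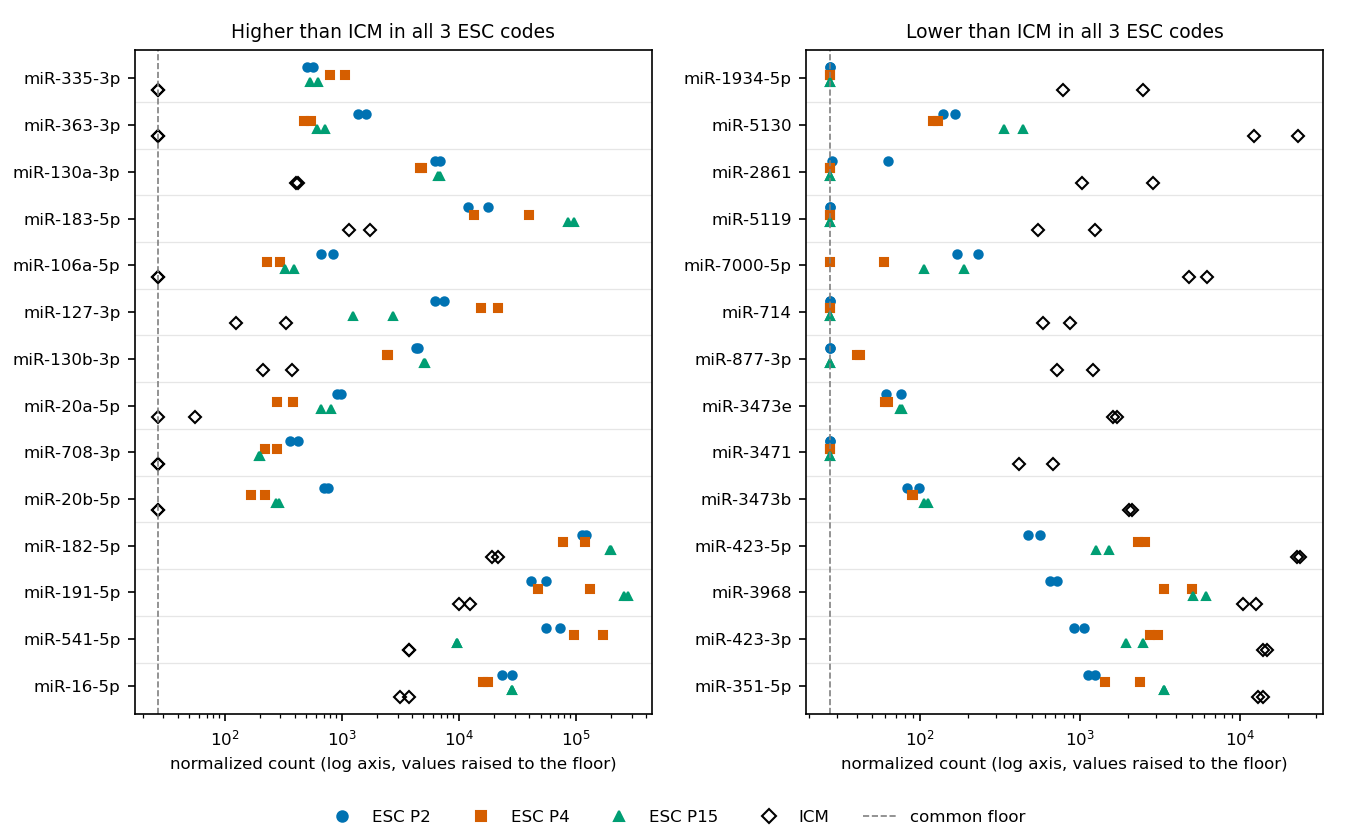
Normalized counts (horizontal axes, log scale, values raised to the floor at the dashed line) of the kept miRNAs with the largest changes and of the most abundant ones, 14 higher on the left and 14 lower on the right. Each symbol is 1 library, filled for ESC P2, P4 and P15 and open for ICM, and in every line the ESC symbols lie on 1 side of the ICM symbols.

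In the miR-17-92 cluster and its paralogs, 11 of 23 tested arms were higher in all 3 codes and 1 was lower, against 17.8% and 26.2% of all tested. The median log2 differences were 2.03 in P2, 0.82 in P4 and 1.79 in P15. The X-linked paralog, on the reverse strand at chrX:52741697-52742563, held the largest changes. miR-363-3p had 1389 and 1605 normalized counts in ESC P2, 551 and 474 in ESC P4 and 718 and 618 in ESC P15, and was listed at 0 in both ICM libraries. It was thus at least 18.8-fold higher in every code. miR-106a-5p had 664 and 843 in ESC P2, 229 and 298 in ESC P4 and 389 and 325 in ESC P15, again with 0 in both ICM libraries, and was at least 9.60-fold higher. Its neighbor miR-20b-5p had 706 and 765 in ESC P2, 169 and 222 in ESC P4 and 293 and 273 in ESC P15, against 0 and 19 in ICM.

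The chromosome 14 copy lies at chr14:115043684-115044496 in the noncoding host Mir17hg. miR-20a-5p had 908 and 988 normalized counts in ESC P2, 280 and 380 in ESC P4 and 814 and 662 in ESC P15, against 27 and 56 in ICM. miR-17-5p had 1411 and 1540 in ESC P2, 582 and 771 in ESC P4 and 1365 and 1166 in ESC P15, against 223 and 220 in ICM. miR-92a-3p is encoded both there and in the X-linked copy, at chrX:52741854-52741874, so its reads cannot be assigned to 1 of them. It was abundant everywhere, with 71583 to 151810 counts in ESC libraries against 96642 and 90265 in ICM. It fell by 0.35 in P2 and rose by 0.35 in P4 and 0.63 in P15 (SE 0.12 each), the only member of the list with opposite calls. The third copy lies in the helicase subunit gene Mcm7 on chromosome 5. There miR-93-5p had 5415 and 5135 counts in ESC P2, 1716 and 2213 in ESC P4 and 6691 and 6624 in ESC P15, against 1169 and 986 in ICM. When every library had the same total, miR-93-5p and miR-17-5p were no longer called in all 3 codes (largest adjusted p = 0.851 and 0.0545, within ranges over 19 alternatives of 0.000863 to 0.851 and 2.83e-05 to 0.0545).

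All 5 tested arms of the miR-130/miR-301 family, which acts on growth and TGF-beta signaling genes, were higher in all 3 codes. Their median log2 differences were 3.69, 2.54 and 3.75 in P2, P4 and P15. miR-130a-3p had 6981 and 6321 normalized counts in ESC P2, 4679 and 4832 in ESC P4 and 6619 and 6904 in ESC P15, against 408 and 422 in ICM. Its log2 differences of 4.00, 3.52 and 4.03 (SE 0.18 each, largest adjusted p = 1.66e-08) were nearly level across codes. miR-130b-3p had 4340 and 4478 in ESC P2, 2487 and 2443 in ESC P4 and 5101 and 5037 in ESC P15, against 212 and 378 in ICM. The weakest member, miR-301a-3p, lies in an intron of the kinetochore gene Ska2 and had a smallest log2 difference of 0.83 (SE 0.21). Its call was lost with equal totals (adjusted p = 0.944, the range over 19 alternatives being 0.00186 to 0.944).

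miR-335-3p was likewise well above the floor in ESCs and listed at 0 in ICM. It lies with miR-335-5p in an intron of Mest, an imprinted gene expressed from the paternal allele, at chr6:30741354-30741375 on the forward strand. It had 507 and 565 normalized counts in ESC P2, 1072 and 794 in ESC P4 and 628 and 538 in ESC P15, with 0 in both ICM libraries. This made it at least 19.7-fold higher in every code. miR-335-5p followed with 179 to 357 counts in ESC libraries, against 38 and 31 in ICM. miR-708-3p, from an intron of Tenm4, had 425 and 359 in ESC P2, 220 and 278 in ESC P4 and 196 and 201 in ESC P15, with 0 in both ICM libraries, and was at least 7.30-fold higher.

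Other families were mixed or small. Both tested members of miR-34/miR-449, a family induced by p53, were higher in all 3 codes. Of the pair, miR-34c-5p had 149 to 518 normalized counts in ESC libraries and 0 in both ICM libraries. The miR-30 family gave 1 higher and 3 lower of 11 tested arms (9.1% and 27.3%), and the miR-15/miR-16 family gave 3 higher of 6. Over all tested miRNAs 17.8% were higher and 26.2% lower, so the lower share of miR-30 was near that of all tested. The calls for miR-16-5p held under all 19 alternatives, whereas miR-15b-5p was no longer called without ESC P2 replicate 1 or 2, ESC P4 replicate 1 or ICM replicate 2 (adjusted p = 0.0542, 0.0652, 0.173 and 0.377, range over 19 alternatives 0.000881 to 0.377). Its ICM values were 152 and 34.

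The cluster most tied to mouse ESC identity is the next. Of 14 tested arms of miR-290-295, at chr7:3218639-3220837 on the forward strand, 2 were higher and 1 was lower in all 3 codes, against 17.8% and 26.2% of all tested, and 5 were called in none. The cluster held 9.0% to 14.9% of counts in ESC libraries, against 17.8% and 15.7% in ICM. It thus took up at least 9.0% of counts in all 8 libraries. miR-295-3p, the most abundant 3p arm, had 31835 and 28559 normalized counts in ESC P2, 21020 and 24714 in ESC P4 and 29447 and 24960 in ESC P15, against 24640 and 22537 in ICM. Its log2 differences of 0.36, -0.05 and 0.20 (SE 0.17 each) were not called (adjusted p = 0.0831, 0.879 and 0.352). By contrast miR-290a-3p had 1760 and 1324 in ESC P2, 438 and 477 in ESC P4 and 1119 and 1101 in ESC P15, against 169 and 99 in ICM, and miR-293-3p rose by at least 1.23 (SE 0.17) in every code. With equal totals neither of the pair was called in all 3 codes (adjusted p = 0.0725 and 0.256, ranges over 19 alternatives 0.00106 to 0.0725 and 5.61e-05 to 0.256).

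The miR-302/miR-367 cluster carries the same AAGUGCU seed in several members but behaved otherwise. All 7 tested arms were higher in P2, 2 in P4 and 3 in P15, against 40.1%, 33.1% and 29.2% of all tested. The cluster as a whole summed to 27 and 38 counts in the ICM libraries, where no arm lay above the floor. Its arms passed the filter through ESC libraries alone, so hardly any call but higher was possible. These shares are therefore no test of the cluster. miR-302d-3p had 1555 and 1687 normalized counts in ESC P2, 57 and 67 in ESC P4 and 377 and 382 in ESC P15, against 27 and 0 in ICM. The codes were thus ordered P2, P15 and P4 without overlap, and every pair of codes differed (largest adjusted p = 0.000462). The call in all 3 codes was lost without ESC P4 replicate 2 (adjusted p = 0.0711, range over 19 alternatives 0.000536 to 0.676). miR-302a-3p, with 1153 and 1391 in ESC P2, 72 and 59 in ESC P4 and 265 and 234 in ESC P15, against 0 and 19 in ICM, had the same order.

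**Figure D3:**
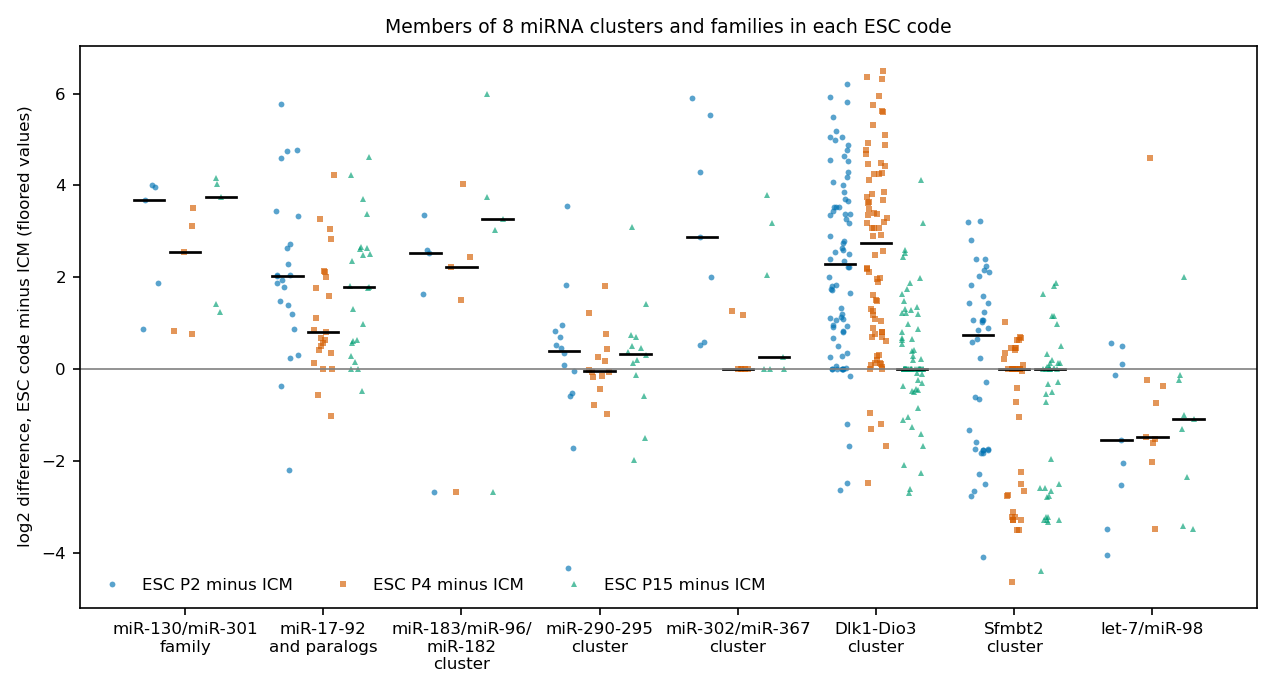
Log2 differences from ICM (vertical axis, floored values) of every tested member of 8 clusters and families (horizontal axis), 1 symbol per miRNA and ESC code, with black bars at the medians. The Dlk1-Dio3 medians are 2.29 and 2.74 in P2 and P4 and 0.00 in P15, and the 5 members of miR-130/miR-301 lie above 0 in all 3 codes.

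The imprinted Dlk1-Dio3 region on chromosome 12 gave the longest of the lists of clusters and families. Its miRNAs are expressed from the maternal allele and have been used as a mark of fully pluripotent mouse cells. Of 76 tested arms, 18 (23.7%) were higher and 2 (2.63%) lower in all 3 codes, against 17.8% and 26.2% of all tested, and a further 36 were higher in P2 and P4 but not called in P15. With equal totals 8 of 72 tested were higher in all 3 codes. In all 71 of the 76 differed among the codes, against 61.6% of all tested miRNAs. The region held 20.5% and 21.4% of counts in ESC P2, 26.1% and 26.3% in ESC P4 and 1.79% and 1.89% in ESC P15, against 2.01% and 2.13% in ICM. In the test of P15 minus the mean of P2 and P4, 64 arms were lower and 3 higher, against 129 lower and 106 higher of all 511.

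miR-541-5p was its most abundant member. It had 55207 and 73215 normalized counts in ESC P2, 170331 and 97066 in ESC P4 and 9725 and 9683 in ESC P15, against 3796 and 3746 in ICM. The excess over ICM in P15, a log2 difference of 1.36 (SE 0.35, adjusted p = 0.00502), was not called with equal totals (adjusted p = 0.280, range over 19 alternatives 0.00356 to 0.280). miR-127-3p, which lies antisense to the imprinted gene Rtl1, had 6221 and 7418 in ESC P2, 21541 and 15579 in ESC P4 and 1238 and 2744 in ESC P15, against 125 and 332 in ICM. Its log2 difference in P15 was 3.18 (SE 0.64, adjusted p = 0.00103). miR-134-5p, known to target Nanog and Pou5f1, had 3117 and 3251 in ESC P2, 8288 and 7345 in ESC P4 and 598 and 675 in ESC P15, against 109 and 239 in ICM. miR-409-3p shows the commoner pattern of the region, with 11921 and 11160 in ESC P2, 18304 and 17703 in ESC P4 and 1514 and 1643 in ESC P15, against 1718 and 1693 in ICM. Its log2 difference was -0.11 (SE 0.11) in P15 and at least 2.76 in the other codes.

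The 134 lower miRNAs were of another kind. Entries numbered from 1900 upward, which include many catalogued from deep sequencing and little studied since, made up 73 of them. Of 116 such entries tested, 62.9% were lower in all 3 codes, against 15.4% of the 395 other entries. The filter bears on this contrast, since it admits miRNAs above the floor in both ICM libraries alone. For these hardly any call but lower was possible. Of the 134, 72 had all ESC libraries at or under the floor. With at least 4 libraries required above the floor, 60 miRNAs were lower in all 3 codes. Whether the contrast holds under that filter was not tested. Together the entries numbered from 1900 held 2.25% to 4.88% of counts in ESC libraries, against 18.5% and 18.8% in ICM. No role is given here for these entries.

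miR-5130 was one of these entries. It had 165 and 139 normalized counts in ESC P2, 121 and 130 in ESC P4 and 335 and 442 in ESC P15, against 23085 and 12267 in ICM. Its smallest log2 difference in size was -5.45 (SE 0.52, largest adjusted p = 2.78e-06), a 43.7-fold fall. miR-1934-5p had at most 15 counts in any ESC library, against 2496 and 785 in ICM, and was at least 51.5-fold lower in every code. miR-3471 had 0 counts in each of the 6 ESC libraries, against 413 and 676 in ICM, and was at least 19.4-fold lower. miR-2861 had 63 and 28 in ESC P2, 2 and 22 in ESC P4 and 12 and 6 in ESC P15, against 2871 and 1033 in ICM, but its call was lost without ESC P2 replicate 2 or ICM replicate 1 (adjusted p = 0.0697 and 0.0706, range over 19 alternatives 0.000471 to 0.0880). The pair with the GGCUGGA seed fell together. Their sequences differ only in the last bases, so reads can be assigned to each other and the pair need not be separate measurements. miR-3473b had 83 to 112 counts in ESC libraries, against 2121 and 2022 in ICM, and miR-3473e had 60 to 77, against 1713 and 1612.

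Among older entries, both arms of miR-423 were prominent. The hairpin lies on the reverse strand of chromosome 11 in an intron of Nsrp1, a splicing regulator. miR-423-5p had 564 and 472 normalized counts in ESC P2, 2323 and 2554 in ESC P4 and 1512 and 1267 in ESC P15, against 22911 and 23700 in ICM. Its log2 differences were -5.50, -3.26 and -4.07 (SE 0.14 each, largest adjusted p = 4.56e-09). miR-423-3p had 1063 and 917 in ESC P2, 2740 and 3092 in ESC P4 and 2494 and 1947 in ESC P15, against 14748 and 14019 in ICM. miR-351-5p lies on the X chromosome near miR-322 and miR-503, and had 1125 and 1243 in ESC P2, 2373 and 1440 in ESC P4 and 3339 and 3350 in ESC P15, against 13008 and 13913 in ICM. Of 6 tested members of that cluster, miR-450b-5p and miR-542-3p were higher in all 3 codes, and none was so with equal totals. miR-542-3p lost its call without ESC P4 replicate 2 (adjusted p = 0.0676, range over 19 alternatives 3.09e-06 to 0.673). miR-450b-5p lost it without ESC P4 replicate 2 or either ICM replicate (adjusted p = 0.17, 0.0709 and 0.0719, range over 19 alternatives 1.07e-07 to 1). miR-744-5p had 269 to 473 counts in ESC libraries, against 5721 and 5569 in ICM.

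miR-3968 was kept with less margin. It had 648 and 716 normalized counts in ESC P2, 5026 and 3350 in ESC P4 and 5091 and 6188 in ESC P15, against 10458 and 12599 in ICM. The call was lost without ESC P15 replicate 1 or ICM replicate 2 (adjusted p = 0.111 and 0.102, range over 19 alternatives 9.27e-06 to 0.111).

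In let-7/miR-98, 4 of 9 tested arms were lower and none was higher in all 3 codes, against 26.2% and 17.8% of all tested. The median log2 differences were -1.55, -1.47 and -1.08 in P2, P4 and P15. let-7f-5p had 785 and 639 normalized counts in ESC P2, 763 and 681 in ESC P4 and 600 and 539 in ESC P15, against 2686 and 3129 in ICM. It did not differ among the codes in the F test (adjusted p = 0.148). let-7e-5p had 50 and 44 in ESC P2, 285 and 259 in ESC P4 and 75 and 71 in ESC P15, against 767 and 781 in ICM. The family as a whole stayed minor, with 0.115% to 0.365% of counts in ESC libraries against 0.814% and 0.896% in ICM. let-7c-5p went the other way, with 83 and 84 in ESC P2, 1898 and 1852 in ESC P4 and 318 and 303 in ESC P15, against 76 and 78 in ICM. Reads of near-identical let-7 members can be assigned to each other, so the split among them is uncertain.

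Both members of miR-10, which sit within Hox gene clusters, were lower in all 3 codes. miR-10b-5p had 668 and 787 normalized counts in ESC P2, 551 and 220 in ESC P4 and 2405 and 2686 in ESC P15, against 5955 and 7709 in ICM. miR-10a-5p had 41 and 50 in ESC P2, 1415 and 634 in ESC P4 and 395 and 399 in ESC P15, against 1974 and 2800 in ICM. Neither call was secure. That of miR-10b-5p was lost without either P15 replicate or ICM replicate 2 (adjusted p = 0.0863, 0.0578 and 0.101, range over 19 alternatives 6.15e-05 to 0.101). That of miR-10a-5p was lost without ESC P4 replicate 2 or either ICM replicate (adjusted p = 0.283, 0.0516 and 0.174, range over 19 alternatives 0.000409 to 0.283).

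The miRNAs linked to Drosha-independent processing fell in part. Of 4 tested, 3 were lower in all 3 codes, against 26.2% of all tested, and miR-484 was lower in P2 alone. The miR-484 call was lost in 8 of 19 alternatives, among them without either P2 replicate, either P15 replicate or ICM replicate 2 (adjusted p = 0.104, 0.115, 0.0519, 0.0519 and 0.236, range 0.00221 to 0.236). miR-877-3p, from a spliced intron of Abcf1, had 7 and 5 normalized counts in ESC P2, 42 and 40 in ESC P4 and 26 and 21 in ESC P15, against 1213 and 713 in ICM. miR-320-3p had 532 to 1563 in ESC libraries, against 2474 and 1882 in ICM, and lost its call without ESC P15 replicate 1 or ICM replicate 1 (adjusted p = 0.115 and 0.175, range over 19 alternatives 0.000583 to 0.181).

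The Sfmbt2 list, a large rodent family of near-identical copies mostly within an intron of Sfmbt2, split by arm. Of 24 tested 5p arms, 4 were higher and none was lower in all 3 codes, and 17 were higher in 1 code. With equal totals, and with median-of-ratios scaling, no member of the list was higher in all 3 codes. Of 14 tested 3p arms, 13 were lower and none was higher. Over all tested miRNAs, 50 of 222 5p arms were higher and 39 lower, and 41 of 232 3p arms were higher and 61 lower. The median log2 differences of the 3p arms were -1.76, -3.22 and -2.76 in P2, P4 and P15. miR-466b-3p had 663 and 650 normalized counts in ESC P2, 223 and 235 in ESC P4 and 268 and 196 in ESC P15, against 2175 and 2279 in ICM. miR-669a-5p had 1730 and 1834 in ESC P2, 556 and 490 in ESC P4 and 785 and 716 in ESC P15, against 337 and 335 in ICM, while miR-669a-3p had 86 and 86 in ESC P2, 20 and 22 in ESC P4 and 52 and 50 in ESC P15, against 413 and 226 in ICM. The call of miR-669a-5p was lost without ESC P4 replicate 1 (adjusted p = 0.0708, range over 19 alternatives 0.00393 to 0.592). Several entries of the family hold identical values, the 40 tested reducing to 33 distinct sets, so they are not separate measurements.

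Both arms of a hairpin were tested for 108 hairpins. In 9 both arms were higher in all 3 codes, in 5 both were lower, in 44 only 1 arm was kept, in 45 none was, and in 5 the arms went opposite ways. The opposite pairs were miR-145a, miR-182, miR-25, miR-30d and miR-669a. The sequences of the miR-25 and miR-182 arms are shown because their directions differ within 1 precursor, with the seed in capitals.
miR-25-3p: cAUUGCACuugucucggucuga
miR-25-5p: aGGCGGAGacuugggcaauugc
miR-182-5p: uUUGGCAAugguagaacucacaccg
miR-182-3p: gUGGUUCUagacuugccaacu

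miR-25-3p had 8508 and 8869 normalized counts in ESC P2, 8259 and 6142 in ESC P4 and 12305 and 14185 in ESC P15, against 1941 and 2267 in ICM. miR-25-5p had 188 and 180 in ESC P2, 424 and 409 in ESC P4 and 651 and 566 in ESC P15, against 772 and 909 in ICM. Its lower call was lost without ESC P15 replicate 2 or ICM replicate 2 (adjusted p = 0.0969 and 0.0650, range over 19 alternatives 7.21e-05 to 0.206). miR-182-3p had 3 to 19 counts in ESC libraries, against 299 and 99 in ICM, and its call was lost without ICM replicate 1 (adjusted p = 0.0895, range over 18 alternatives 0.00543 to 0.132). In each of these 2 pairs the abundant arm was the higher one and the rarer arm the lower one. miR-145a-5p lost its call without ESC P2 replicate 1 or ICM replicate 2 (adjusted p = 0.0694 and 0.0523, range over 19 alternatives 1.04e-06 to 1). miR-30d-5p lost its call without ESC P4 replicate 2 or either ICM replicate (adjusted p = 0.138, 0.0527 and 0.0641, range over 19 alternatives 0.0100 to 0.939). Each of the 5 opposite pairs thus had an arm whose call was lost when a single library was left out.

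Kept miRNAs were not alike across the codes. Of the 91 higher ones 70 differed among the 3 codes, and of the 134 lower ones 45 did, against 61.6% of all tested. Between P2 and P4 126 miRNAs were higher and 93 lower in P2. In P15 minus P2 104 were higher and 146 lower, and in P15 minus P4 101 were higher and 98 lower. Of the 134 lower miRNAs, 72 had all ESC values at or under the floor, where differences among codes cannot be seen.

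Of 105 miRNAs called in 1 code alone, 85 also differed from the mean of the other 2 codes and were taken as specific to that code. These were 76 higher (14.9% of those tested) and 9 lower (1.76%). The filter bears on this split. Of the 86 miRNAs higher in 1 code, 52 had both ICM libraries at or under the floor, and of the 19 lower in 1 code 0 did. Such miRNAs passed the filter through ESC libraries alone, so hardly any call but higher was possible. The counts by code and by list that follow share this limit. P2 had 47 higher and 8 lower, P4 had 12 higher and none lower, and P15 had 17 higher and 1 lower. Of the 47 in P2, 18 belonged to the Sfmbt2 list, of its 40 tested, and 4 to miR-302/miR-367, of its 7 tested. Over all miRNAs it was 47 of 511. The 40 of the Sfmbt2 list reduce to 33 distinct sets of values, so its 18 need not be separate measurements. Of the 12 in P4, 7 belonged to the Dlk1-Dio3 region, of its 76 tested. The region also held 3 of the higher ones in P2 and 1 in P15. The count of specific miRNAs was 32 when no floor was used and 46 when 4 libraries had to pass the floor.

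miR-432, of the Dlk1-Dio3 region, was specific to P2. It had 2035 and 2012 normalized counts there and was listed at 0 in the other 4 ESC libraries and in both ICM libraries. miR-302a-5p had 193 and 206 in ESC P2, 6 and 7 in ESC P4 and 34 and 32 in ESC P15, with 0 in both ICM libraries, a log2 difference of 2.73 from the other codes (SE 0.24, adjusted p = 3.14e-06). It was called higher in all 3 codes with no floor (adjusted p of the P2 calls 0.0121, range over 19 alternatives 2.78e-06 to 0.0121). With the 8 ESC and ICM libraries fitted alone it was called higher in 2 (adjusted p of the P2 calls 2.17e-05). miR-18b-5p had 297 and 255 in ESC P2, 44 and 79 in ESC P4 and 55 and 53 in ESC P15, with 0 in both ICM libraries. Without ESC P4 replicate 1 it was no longer called in P2 alone (adjusted p of the P2 calls 0.00213, range over 19 alternatives 9.12e-06 to 0.241).

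The 3 named miRNAs lower in P2 alone were less regular. miR-148b-3p had 0 in both P2 libraries, 0 and 439 in ESC P4 and 745 and 744 in ESC P15, against 348 and 360 in ICM. miR-290a-5p had 0 in both P2 libraries, 515 and 467 in ESC P4 and 0 and 710 in ESC P15, against 517 and 571 in ICM. Each of these was thus listed at 0 in 1 library of a replicate pair and far above the floor in the other. miR-1946a had 9 and 7 in ESC P2, 285 and 118 in ESC P4 and 202 and 196 in ESC P15, against 528 and 899 in ICM. All 3 lost their status when single libraries were left out. For miR-148b-3p these were either P4 replicate (adjusted p of the P2 calls 6.17e-07 and 2.86e-05, range over 19 alternatives 6.17e-07 to 0.0474), and in both cases its calls then went in opposite directions in different codes. For miR-290a-5p they were either P2 replicate and P15 replicate 2 (0.0612, 0.0593 and 1.36e-05, range 4.61e-08 to 0.127), and for miR-1946a either P2 replicate (0.0790 and 0.0797, range 0.00301 to 0.0797).

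P15 had the strongest of the remaining cases. miR-181b-5p, of a family that acts in hematopoietic and vascular cells, had 273 and 273 normalized counts in ESC P15, 30 and 26 in ESC P2 and 28 and 25 in ESC P4, with 0 in both ICM libraries. Its log2 difference from the other codes was 3.28 (SE 0.18, adjusted p = 3.99e-08). With no floor miR-181b-5p was called higher in all 3 codes (adjusted p of the P15 calls 0.173, range over 19 alternatives 2.45e-08 to 0.173). miR-1247-3p, from Dio3os at the end of the Dlk1-Dio3 region, had 435 and 517 in ESC P15, 51 and 46 in ESC P2 and 29 and 18 in ESC P4, against 0 and 22 in ICM. It was higher in the code in which most of that region was near the ICM level. With the 8 ESC and ICM libraries fitted alone miR-1247-3p was called higher in 2 codes. The adjusted p of its P15 calls was then 1.15e-05 (range over 19 alternatives 8.14e-07 to 0.0410). miR-7671-5p had 152 and 161 in ESC P15, at most 31 in the other ESC libraries, and 44 and 0 in ICM. With no floor, and with equal totals, it was called in no code. The adjusted p of its P15 calls was then 0.128 and 0.0528 (range over 19 alternatives 3.83e-05 to 0.128). miR-741-3p, the only one specific to P15 on the lower side, had 14 and 10 in ESC P15, 154 and 184 in ESC P2 and 948 and 315 in ESC P4, against 239 and 388 in ICM, and was no longer called in P15 alone without ESC P4 replicate 2 (adjusted p of the P15 calls 4.06e-05, range over 19 alternatives 8.12e-06 to 0.00274).

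The named specific miRNAs of P4 were low or unsteady. miR-6992-5p had 84 and 62 normalized counts in ESC P4, 15 and 15 in ESC P2 and 4 and 0 in ESC P15, against 27 and 0 in ICM. With no floor it was called in no code (adjusted p of the P4 calls 0.117, range over 18 alternatives 1.77e-05 to 0.117). miR-465a-5p had 173 and 100 in ESC P4, 48 and 57 in ESC P2 and 7 and 7 in ESC P15, against 0 and 47 in ICM, and was no longer specific to P4 without ICM replicate 2 (adjusted p of the P4 calls 0.000339, range over 19 alternatives 0.000328 to 0.0960). miR-379-3p had 365 and 251 in ESC P4, 211 and 264 in ESC P2 and 29 and 30 in ESC P15, against 27 and 180 in ICM. Its status held under 4 of 19 alternatives and was lost without any 1 of the 8 libraries (adjusted p of the P4 calls 0.00569 to 0.331).

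**Figure D4:**
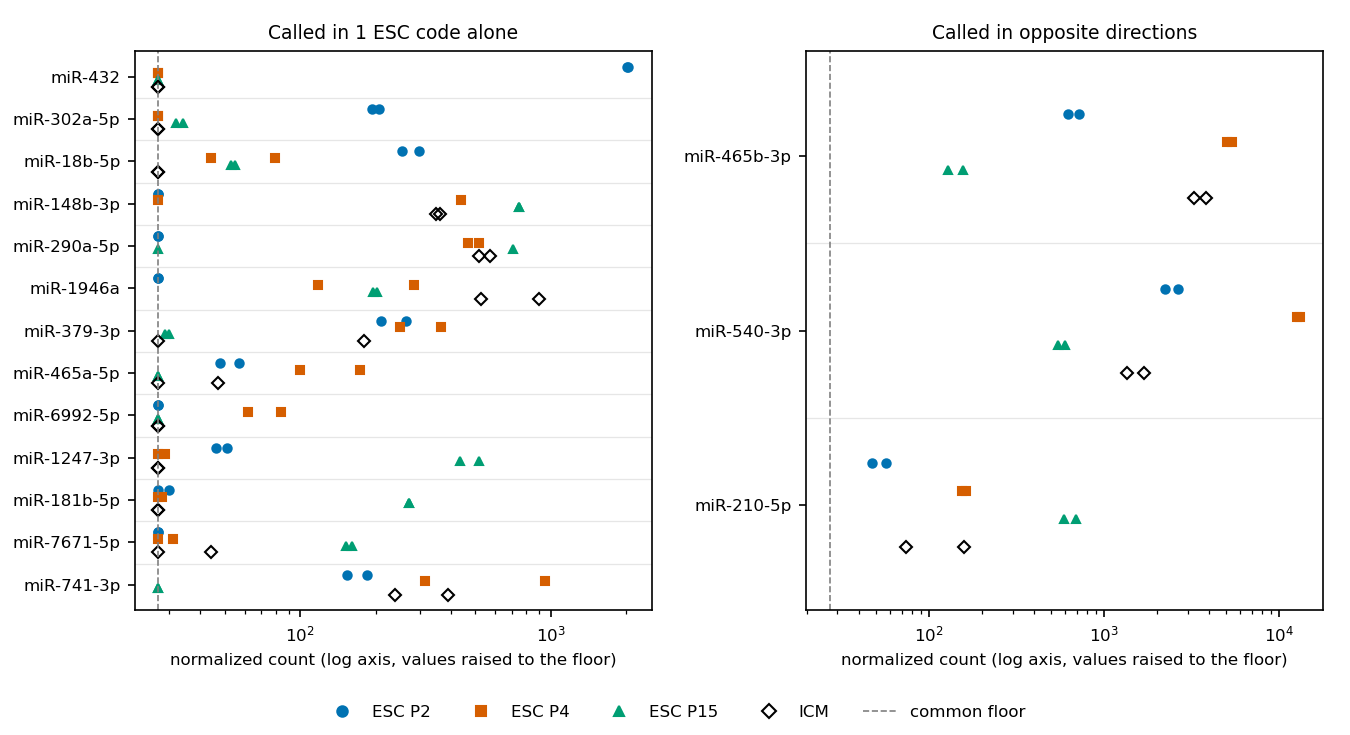
Normalized counts (horizontal axes, log scale, values raised to the floor at the dashed line) of 13 miRNAs called in 1 ESC code alone, on the left, and of 3 called in opposite directions, on the right. Each symbol is 1 library, filled for ESC P2, P4 and P15 and open for ICM, and miR-432 lies above the floor in the P2 libraries only.

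Among the 18 miRNAs with opposite calls, the widest spread was that of miR-465b-3p. It had 715 and 620 normalized counts in ESC P2, 5375 and 5012 in ESC P4 and 157 and 129 in ESC P15, against 3257 and 3845 in ICM. Its log2 differences were -2.41, 0.55 and -4.64 (SE 0.16 each). miR-465a-3p and miR-465c-3p have the same values and are not counted as further evidence. miR-540-3p of the Dlk1-Dio3 region had 2650 and 2227 in ESC P2, 12714 and 13072 in ESC P4 and 545 and 597 in ESC P15, against 1360 and 1702 in ICM. miR-210-5p, the lesser arm of a hypoxia-induced miRNA, had 57 and 47 in ESC P2, 155 and 163 in ESC P4 and 693 and 592 in ESC P15, against 158 and 74 in ICM.

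Some zeros in the table were abrupt. In all, 14 miRNAs were listed at 0 in an ESC library and at 100 or more in another, 3 of them within a replicate pair. miR-26b-5p was listed at 0 in both P4 libraries, had 1057 and 1289 normalized counts in ESC P2 and 1412 and 1562 in ESC P15, and had 207 and 115 in ICM. miR-92b-3p was listed at 0 in both P2 libraries and in ICM replicate 1, and had 15201 and 8526 in ESC P4, 16434 and 16593 in ESC P15 and 4651 in ICM replicate 2. Of the 14, 3 were kept and 6 were specific to a code. A miRNA given at 0 here is only listed at 0, and whether it was absent was not tested.

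The outgrowth libraries entered none of the contrasts that chose the miRNAs, but they share the fit's estimate of the spread. With the 8 ESC and ICM libraries fitted alone, 87 of the 91 higher and 126 of the 134 lower miRNAs were kept. Day 5 had 143 higher (31.1%) and 174 lower (37.8%) of 460 miRNAs tested against day 0.5. Of the 91 miRNAs higher in all 3 ESC codes, 90 were tested, 76 were higher and 2 were lower at day 5, with a median log2 difference of 1.94 against -0.21 over all 460. Of the 134 lower ones, 109 were tested, 90 were lower and 2 were higher at day 5, with a median of -1.87. The mean share of counts of the 91 was 12.4%, 19.4%, 27.5%, 36.4% and 37.5% at days 0.5, 1, 2, 3 and 5. That of the 134 was 25.6%, 22.1%, 19.5%, 13.0% and 6.14% on the same days. Depth moved with this contrast, since the day 5 libraries hold at least 2322100 and 2611080 reads by the same reckoning, against 369345 and 212806 in the day 0.5 libraries, and its part in the result was not tested.

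miR-363-3p had 1026 and 1144 normalized counts at day 5, against 17 and 0 at day 0.5. miR-106a-5p had 565 and 542 at day 5, against 0 in both libraries at day 0.5. These paralogs of the X-linked cluster thus lay near their ESC values by day 5. miR-423-5p had 3084 and 2604 at day 5, against 25384 and 27731 at day 0.5. miR-351-5p was an exception, with 7234 and 11223 at day 5, against 8660 and 6863 at day 0.5, a log2 difference of 0.22 (adjusted p = 0.510). Between them it reached 33718 and 39238 at day 2 and 34801 and 20260 at day 3. miR-143-3p, kept as higher, had 619 and 680 at day 5, against 485 and 736 at day 0.5 (log2 difference 0.12, adjusted p = 0.673), while ESC libraries had 1628 to 2375. miR-25-3p was listed at 0 in both day 5 libraries, against 1866 and 2338 at day 0.5, and is 1 of the 2 kept higher miRNAs called lower there.

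**Figure D5:**
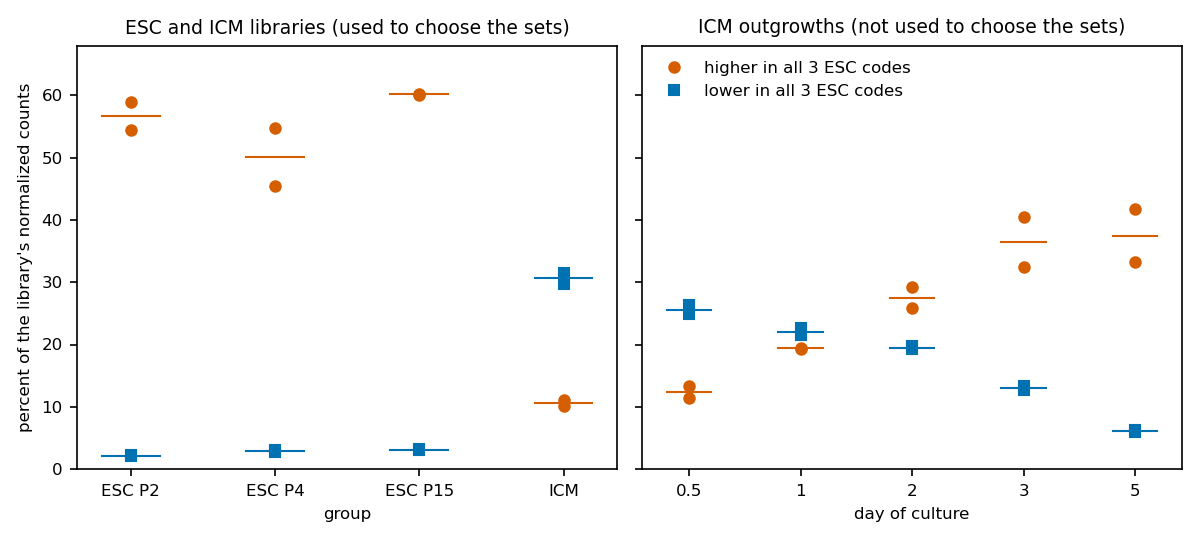
Share of each library's normalized counts (vertical axis, percent) held by the miRNAs higher (circles) and lower (squares) in all 3 ESC codes, for ESC and ICM libraries on the left and for ICM outgrowths by day of culture on the right. Each symbol is 1 library and bars are means of 2. In outgrowths the first share is 12.4% at day 0.5 and 37.5% at day 5, and the second is 25.6% and 6.14%.

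By chromosome, 390 tested miRNAs had a single placement, of which 17.4% were higher and 25.6% lower in all 3 codes. Chromosome 12 held 19 higher and 4 lower of 82, most of them in the Dlk1-Dio3 region. On chromosome 6, where miR-335 and the miR-183 cluster lie, 8 of 15 were higher. Chromosome 11 had 1 higher and 16 lower of 28, and chromosome 10 had none higher and 10 lower of 15.

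Markers of other cell types were checked in the same libraries. Summed fibroblast and smooth muscle markers gave 4865 to 6648 normalized counts in ESC libraries, against 11056 and 12872 in ICM. Of 10 tested, 3 were higher and 3 lower in all 3 codes, against 17.8% and 26.2% of all tested. miR-143-3p had 1628 to 2375 counts in ESC libraries, against 381 and 419 in ICM, miR-145a-5p had 40 to 56 against 0 and 0, and miR-214-3p had at most 2 against 27 and 0. Blood cell markers summed to 1067 to 2213 in ESC libraries, against 2252 and 2934 in ICM. In them miR-142-5p and miR-150-5p were higher and miR-486-5p lower in all 3 codes, while miR-451a and miR-223-3p were at most 2 in ESC libraries. miR-142-5p lost its call without either P15 replicate or ICM replicate 1 (adjusted p = 0.0507, 0.0918 and 0.213, range over 19 alternatives 0.00145 to 0.921). None of 10 tested neural markers was kept, and their sums were 656 to 1185 against 718 and 902. Of the 10, 6 were called higher in P15 and 2 in P2, against 29.2% and 40.1% of all tested. In P4 0 were called higher, and 1 each was lower in P2 and in P4. On the higher side 3 were specific to P15. The sums include miR-128-3p, not called, at 398 to 572 in ESC libraries and 462 and 524 in ICM. The muscle markers miR-206-3p and miR-208a-3p and the liver marker miR-122-5p were at 0 in all 8 libraries. Some other members of these lists were not. The endoderm marker miR-375-3p was higher in all 3 codes, with 101 to 542 counts in ESC libraries against 49 and 16 in ICM. Its call held under 16 of 19 alternatives. miR-192-5p had 875 to 3361 against 1680 and 1860 and was not called. The muscle marker miR-499-5p was higher in P2 alone, with 44 and 45 there against 0 and 22 in ICM. With no floor it was called in no code (adjusted p of the P2 calls 0.222, range over 17 alternatives 1.91e-06 to 0.222). miR-208b-3p, not tested, had 21 and 28 in P2. Both arms of the endothelial miR-126a were higher in all 3 codes, with sums of 366 to 1132 in ESC libraries against 131 and 143 in ICM, and neither was called so with equal totals (adjusted p = 0.0713 for the 5p arm, range over 19 alternatives 0.00234 to 0.0713, and 0.151 for the 3p arm, range 0.00166 to 0.345). The part of such cells in the results was not tested.

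At the threshold, miR-205-5p was just inside the higher set (largest adjusted p = 0.0379) and miR-140-3p just outside (0.0509). miR-743a-3p was just inside the lower set (0.0400) and miR-30a-5p just outside (0.0531).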

How the data were processed

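Small RNA of mouse ICM, ICM outgrowths and ESCs was isolated with a PureLink miRNA kit, made into TruSeq small-RNA libraries and sequenced on an Illumina GAIIx, per the labels' protocols and the series' design text. For every miRNA and library the authors deposited a score, which is a read count after their normalization, rounded to whole numbers. Tools named in the submitters' processing notes are cutadapt and DESeq2 1.30.0, with mm10 as the build. How reads were aligned and counted, on which miRNA annotation, and by which step they were normalized is not given in the sources used here. Because the values are not raw counts, no count model was fitted. Libraries were grouped by their descriptions, and 0 sample columns were left unmapped.

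The weight of 1 read was computed from the spacing of the low values in each library, and the floor is 5 reads of the shallowest library, where counting error alone is 44.7%. For ESC and day 5 libraries only a lower bound of depth was found. Values were raised to the floor of 27.2, taken as log2 and fitted in limma 3.58.1 (R 4.3.3, trend and robust) over 9 groups of 2 libraries, with 9 residual degrees of freedom. Benjamini-Hochberg adjustment ran within each contrast over 511 miRNAs above the floor in at least 2 of the 8 ESC and ICM libraries, and over 460 for the outgrowths. Percentages of calls are over the miRNAs tested. The scripts were tested on simulated data. A miRNA was specific to a code when it was called against ICM in that code alone and also called, in the same direction, in that code minus the mean of the other 2.

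Named miRNAs were the 10 higher and 10 lower kept ones with the largest smallest change and a mean of at least 100, the 5 most abundant each way, the 3 strongest specific ones each way per code, the 3 widest opposite ones and the 2 most abundant of each list. Others named as members of those lists or families, as arms of a named hairpin, for a 0 in the table or at the threshold were chosen after their values were seen. The members, lists and tests were chosen with earlier results of these data known. Alternatives changed the floor, the filter, the scaling, the weights, the libraries fitted, limma's options and the replicate block, or left out each library in turn. Sequences and coordinates are from RefSeq (GRCm38.p6), and host genes from GENCODE M21 on the same assembly. Tables and figures were made with Python 3.11.15, pandas 2.3.3, numpy 2.4.6 and matplotlib 3.10.9.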

Additional observations from a re-analysis of the deposited data

Results flagged for a closer look

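The miRNAs below were named in the comparison with ICM or as the abundant members of a list, and they also differed among the 3 ESC codes in limma's F test at an adjusted p below 0.05. The value given for each is the log2 difference between the highest and the lowest code, over floored values of 2 libraries each. No explanation was tested for any of them.

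In P2 the highest level was reached by the following. In the miR-17-92 clusters and paralogs the differences were 1.55 for miR-363-3p, 1.52 for miR-106a-5p, 1.54 for miR-20a-5p, 1.92 for miR-20b-5p and 2.35 for miR-18b-5p. In miR-302/miR-367 they were 2.87 for miR-302a-5p, 4.71 for miR-302d-3p and 4.28 for miR-302a-3p. The Dlk1-Dio3 member here was miR-432 at 6.22, the widest of all. In the miR-200 family the differences were 1.03 for miR-200b-3p and 2.08 for miR-429-3p, and in miR-30 they were 0.82 for miR-30d-5p and 0.78 for miR-30e-5p. In the Sfmbt2 list they were 1.5 for miR-466a-3p and 1.77 for miR-669p-5p. Single members of other families had 1.64 for miR-34c-5p, 2.44 for miR-322-5p, 0.64 for miR-29a-3p and 1.00 for miR-21a-5p. Among markers of other cell types the differences were 2.06 for miR-142-5p, 1.78 for miR-138-5p, 0.71 for miR-499-5p and 1.33 for miR-126a-3p. A last entry had 2.30 for miR-7000-5p.

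P4 was the highest code for another group. Of the Dlk1-Dio3 region these were 3.31 for miR-127-3p, 3.73 for miR-541-5p, 3.36 for miR-379-3p, 4.50 for miR-540-3p and 3.51 for miR-409-3p. The X-linked miR-465 and miR-741 entries had 2.27 for miR-465a-5p, 5.19 for miR-465b-3p and 4.33 for miR-741-3p. The imprinted list had 0.79 for miR-335-3p and 1.76 for miR-298-5p. Both arms of miR-423 differed, by 2.24 for miR-423-5p and 1.56 for miR-423-3p. let-7c-5p differed by 4.49. In miR-125/miR-99 the differences were 2.07 for miR-99b-5p and 2.90 for miR-125a-5p. The others were 4.17 for miR-290a-5p and 1.41 for miR-6992-5p.

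P15 was the highest code for the remainder. In the miR-183 cluster the differences were 2.64 for miR-183-5p and 1.03 for miR-182-5p, and in miR-130/miR-301 they were 0.51 for miR-130a-3p and 1.04 for miR-130b-3p. The AUUGCAC family had 0.99 for miR-92a-3p and 0.89 for miR-25-3p. The miR-23/miR-27 clusters had 0.96 for miR-27b-3p and 1.2 for miR-23b-3p. In miR-181 they were 3.31 for miR-181b-5p and 2.73 for miR-181d-5p. Single members of other families had 4.77 for miR-148b-3p, 5.77 for miR-26b-5p, 0.76 for miR-16-5p, 1.03 for miR-292-5p and 1.5 for miR-351-5p. Others were 2.48 for miR-191-5p, 3.63 for miR-210-5p, 4.08 for miR-1247-3p and 2.87 for miR-10b-5p. Entries numbered from 1900 had 1.62 for miR-5130, 3.04 for miR-3968, 2.52 for miR-7671-5p, 2.92 for miR-5126 and 2.87 for miR-1946a. The Drosha-independent pair had 1.06 for miR-484 and 1.43 for miR-320-3p. Markers of other cell types had 2.74 for miR-486-5p, 1.41 for miR-192-5p, 2.14 for miR-375-3p and 1.35 for miR-126a-5p. miR-26b-5p and miR-148b-3p were listed at 0 in the libraries of at least 1 code.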

How the results depend on the processing

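Of the 91 higher and 134 lower miRNAs, 40 and 86 were kept under all of the 19 alternatives in which they were tested. Counting those no longer tested as not kept, the numbers were 40 and 37. Of the 134 lower, 76 were not tested with the filter of 4 libraries and 21 were not tested with a floor of 10 reads. Of the 91 and 134, 66 and 102 were kept when any 1 of the 8 libraries was left out. The counts moved by over 1.5 times in these cases. With no floor, specific miRNAs numbered 32, against 85. With a filter of at least 4 libraries above the floor, 60 were lower in all 3 codes, against 134, and 46 were specific. The filter itself removes miRNAs above the floor in ICM alone. With equal totals 46 were higher, against 91, and the share of higher among kept miRNAs was 21%, against 40.4%. That share was 33.5% with median-of-ratios size factors, which moved the median difference by -0.13, 53.5% with no floor (129 higher and 112 lower) and 60.8% with the filter of 4 libraries (93 higher and 60 lower). Apart from the filter, the cause was not tested. Without single libraries the counts were 83 to 87 higher, 114 to 131 lower, 71 to 100 specific, 267 to 323 differing among the codes, and 281 to 303 for day 5 against day 0.5, where 317 were called with all libraries. The deviations of same-numbered libraries correlated at -0.28 to 0.03 over the pairs of ESC and ICM groups, so no shared shift was seen. Whether same-numbered libraries share a preparation was not tested. With the replicate number as a block, 91 were higher, 132 lower, 89 specific, 308 differed among the codes and 320 were called at day 5. None of the 91 was kept as lower and none of the 134 as higher under any alternative. Some single differences turned: that of miR-379-3p in P15, -1.25, was 0.12 without ICM replicate 2, that of miR-148b-3p in P4, -1.70, was 0.31 without P4 replicate 1, and with equal totals that of miR-484 in P4, 0.31, was -0.47 and that of miR-30d-5p in P4, 0.70, was -0.07. Where a library was left out, the lone library of its group was assumed to vary like the other groups. Changes of a few reads in ICM lie within counting error, and miRNAs absent from ICM but low in ESCs could not be tested at its depth.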

Other observations

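Some abundant miRNAs outside the clusters above also separated ESCs from ICM or the codes from each other. miR-27b-3p, of the miR-23b/miR-27b/miR-24-1 cluster, had 8640 and 9751 normalized counts in ESC P2, 12578 and 8586 in ESC P4 and 16929 and 18850 in ESC P15, against 1142 and 1557 in ICM. It rose by at least 2.78 on the log2 scale in every code, and its call held under all 19 alternatives (adjusted p at most 0.000176). Its cluster mate miR-23b-3p was lower in abundance, with 192 to 505 counts in ESC libraries against 125 and 171 in ICM, and was called higher in 2 codes. miR-148a-3p, which targets the DNA methyltransferase Dnmt1, had 5998 to 12372 counts in ESC libraries, against 1680 and 2561 in ICM, and its call also held under all 19 alternatives. It did not pass the F test among the codes (adjusted p = 0.207).

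miR-298-5p, from the imprinted Gnas region, was among the most abundant miRNAs on both sides. It had 10799 and 10214 normalized counts in ESC P2, 39921 and 31801 in ESC P4 and 23153 and 19680 in ESC P15, against 15836 and 19194 in ICM, so P2 lay below ICM and P4 above it. The neighboring pair miR-99b-5p and miR-125a-5p also spread widely among the codes. miR-125a-5p had 601 and 677 in ESC P2, 7161 and 3145 in ESC P4 and 3467 and 2819 in ESC P15, against 4051 and 5442 in ICM, and was called lower in P2 alone. In the miR-200 family, which acts on the epithelial state through Zeb1 and Zeb2, miR-200c-3p was higher in all 3 codes, with 60 to 328 counts in ESC libraries against 0 and 40 in ICM. That call was lost with equal totals, without ESC P4 replicate 1 and without ICM replicate 1 (adjusted p = 0.0913, 0.114 and 0.0872, range over 19 alternatives 0.00813 to 0.212). miR-200b-3p and miR-429-3p of the same family were called higher in P2 and lower in P4. The log2 differences were 0.44 and -0.60 for miR-200b-3p and 0.94 and -1.15 for miR-429-3p.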
